A study of Homo sapiens with 17 samples.

Results

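The HOXA2 to HOXA13 genes form the part of the HOXA cluster described here, 10 homeobox genes on the minus strand of chromosome 7 (GRCh38, chr7:27091014-27202692). Their promoter interactions were read from the HindIII fragments of this region that held a baited promoter and a transcript start of a member gene. There were 10 such baited fragments, of 15982 with an interaction in either list. The member genes HOXA3, HOXA5 and HOXA6 shared 1 of them (chr7:27142150-27155484), and HOXA3 and HOXA13 each had a start in 2.

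HOX genes encode homeodomain transcription factors that give cells their position along the head-to-tail axis of the embryo. Within a cluster, genes at the 3′ end act towards the head and genes at the 5′ end act towards the tail and in the limbs. In embryonic stem cells these genes are kept silent by Polycomb proteins, whose target promoters can meet in the nucleus over long genomic distances. H3K4me1 is a histone mark found at enhancers and around promoters, including promoters held by Polycomb.

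Promoter Capture Hi-C (PCHi-C), Hi-C and H3K4me1 CUT&RUN were carried out in human PSCs of the established embryonic stem cell line WA09/H9 NK2. Naive PSCs were grown in t2iL+PKCi, a medium with the MEK inhibitor PD0325901, the GSK3 inhibitor CHIR99021, LIF and the PKC inhibitor Gö6983, on Matrigel, and primed PSCs in TeSR-E8 on Vitronectin, both at 5% oxygen. A single line was used, so the values describe that line. For PCHi-C, 2 replicates per cell type had been combined into 1 list with CHiCAGO, whose score measures the excess of reads between a pair of HindIII fragments over the reads expected at their distance. Hi-C had 1 library per cell type, and H3K4me1 had 2 naive and 3 primed libraries. Differences between the interaction lists and between the Hi-C libraries therefore had no replicate check, and a pair missing from a list had a score under 5, which is not the same as no contact.

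Sequences are given for the fragments and promoters on which the comparisons below turn. The first pair are the partner fragment in an intron of SKAP2 with the highest score from HOXA2 in primed PSCs (chr7:26857203-26857408) and a partner fragment in an intron of JAZF1 in which H3K4me1 was higher in primed PSCs (chr7:28020100-28020314). They are followed by the 250 bases upstream of the start of HOXA2 and HOXA13, the ends of the cluster, and of HOXA9 and HOXA10, whose main starts lie outside the baited fragments. Promoters are from RefSeq (GRCh38.p14), on the minus strand, and partner fragments are on the plus strand. Capitals mark CpG dinucleotides, the sites of DNA methylation that are dense in promoters bound by Polycomb.
SKAP2 intron partner: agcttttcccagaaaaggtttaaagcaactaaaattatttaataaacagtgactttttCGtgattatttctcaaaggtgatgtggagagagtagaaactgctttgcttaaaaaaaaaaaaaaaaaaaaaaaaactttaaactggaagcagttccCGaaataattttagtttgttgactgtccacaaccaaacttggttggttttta
JAZF1 intron partner: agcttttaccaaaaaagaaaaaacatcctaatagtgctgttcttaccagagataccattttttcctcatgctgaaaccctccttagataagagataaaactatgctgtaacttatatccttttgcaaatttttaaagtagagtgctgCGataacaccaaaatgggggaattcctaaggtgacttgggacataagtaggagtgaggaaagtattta
HOXA2 promoter, chr7:27102684-27102933: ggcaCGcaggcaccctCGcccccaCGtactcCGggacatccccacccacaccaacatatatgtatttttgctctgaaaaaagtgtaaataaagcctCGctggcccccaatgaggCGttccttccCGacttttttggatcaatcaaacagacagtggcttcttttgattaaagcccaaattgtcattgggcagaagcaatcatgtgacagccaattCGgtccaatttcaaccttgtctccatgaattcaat
HOXA9 promoter, chr7:27165538-27165787: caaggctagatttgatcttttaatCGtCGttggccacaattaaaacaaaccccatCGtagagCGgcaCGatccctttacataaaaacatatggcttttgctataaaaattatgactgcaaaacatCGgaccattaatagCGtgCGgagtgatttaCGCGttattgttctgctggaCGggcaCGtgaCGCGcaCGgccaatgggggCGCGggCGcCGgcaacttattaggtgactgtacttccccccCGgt
HOXA10 promoter, chr7:27174321-27174570: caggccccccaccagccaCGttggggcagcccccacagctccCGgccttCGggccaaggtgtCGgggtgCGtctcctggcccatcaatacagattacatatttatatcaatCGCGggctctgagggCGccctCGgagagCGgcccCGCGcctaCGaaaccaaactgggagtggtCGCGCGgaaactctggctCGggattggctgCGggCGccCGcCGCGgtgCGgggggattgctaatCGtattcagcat
HOXA13 promoter, chr7:27200092-27200341: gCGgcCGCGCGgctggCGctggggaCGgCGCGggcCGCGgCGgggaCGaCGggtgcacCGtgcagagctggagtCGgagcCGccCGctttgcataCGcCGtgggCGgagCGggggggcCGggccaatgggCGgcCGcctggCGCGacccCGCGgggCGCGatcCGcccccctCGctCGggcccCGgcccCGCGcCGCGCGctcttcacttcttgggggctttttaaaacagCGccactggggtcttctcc
The partner fragments were poor in CpG, with 2 in 206 bases and a GC content of 29.6% in SKAP2, and 1 in 215 bases and 35.3% in JAZF1. The upstream bases of HOXA13 held 40 CpG at a GC content of 78.0%, against 8 CpG and 47.2% for HOXA2. RefSeq promoter windows, which run from 250 bases before to 50 after a start, were matched for 9 of the 10 genes (not HOXA5). Over such a window HOXA13 had 44 CpG, a number reached by 4.2% of the 35116 RefSeq windows, whereas HOXA2 had 11, reached by 54.7%. The other 7 windows held 13 to 31 CpG, and the median over all windows was 14.

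Primed PSCs had more listed interactions at the HOXA genes than naive PSCs, and they reached further. The 10 baited fragments had 86 interactions in the naive list and 191 in the primed list, of which 53 were the same pair of fragments in both. When ends within 10 kb were taken as the same, 85 of the 86 naive interactions had a primed counterpart. A pair described below as missing from the primed list thus usually had a listed neighbour, which could belong to another baited fragment. HOXA9, for example, was joined to chr7:26680643-26692165 in SKAP2 in naive PSCs and had no primed partner within 10 kb of it. Median distance was 386.1 kb in naive and 596.1 kb in primed PSCs. In naive PSCs, all 86 partners lay outside the region, 44 on the 3′ side towards SKAP2 and 42 on the 5′ side towards EVX1, and none was over 1 Mb away. In primed PSCs, 18 interactions joined fragments inside the region, 107 led to the 3′ side and 66 to the 5′ side, and 42 were over 1 Mb. No interaction with another chromosome was listed in either cell type.

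At 6 of the 10 baited fragments the primed list held at least 2 times as many interactions as the naive list, against 29.5% of all baited fragments. The opposite, at least 2 times as many in naive PSCs, was found at 0 of 10, against 31.7%. Over all baited fragments the median number was 3 in both lists. An interaction over 1 Mb or between chromosomes was listed in primed PSCs for 9 of the 10, against 10.8% of all baited fragments, and in naive PSCs for none, against 4.31%. The other HOX clusters differed from the HOXA member fragments in these counts, as descriptions without a test. They were counted over every baited fragment with a HOX gene start. For HOXA, a further baited fragment of the region without a member start was left out. The HOXB cluster, with 10 baited fragments, had 134 naive and 173 primed interactions, of which 0 and 8 were over 1 Mb. HOXC, with 8, had 170 and 150, of which 0 and 6 were over 1 Mb. HOXD, with 9, had 156 and 240, of which 12 and 89 were over 1 Mb. The HOXA member fragments thus had the lowest naive count of these 4 sets, and only the HOXD set had more primed interactions over 1 Mb.

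**Figure D1:**
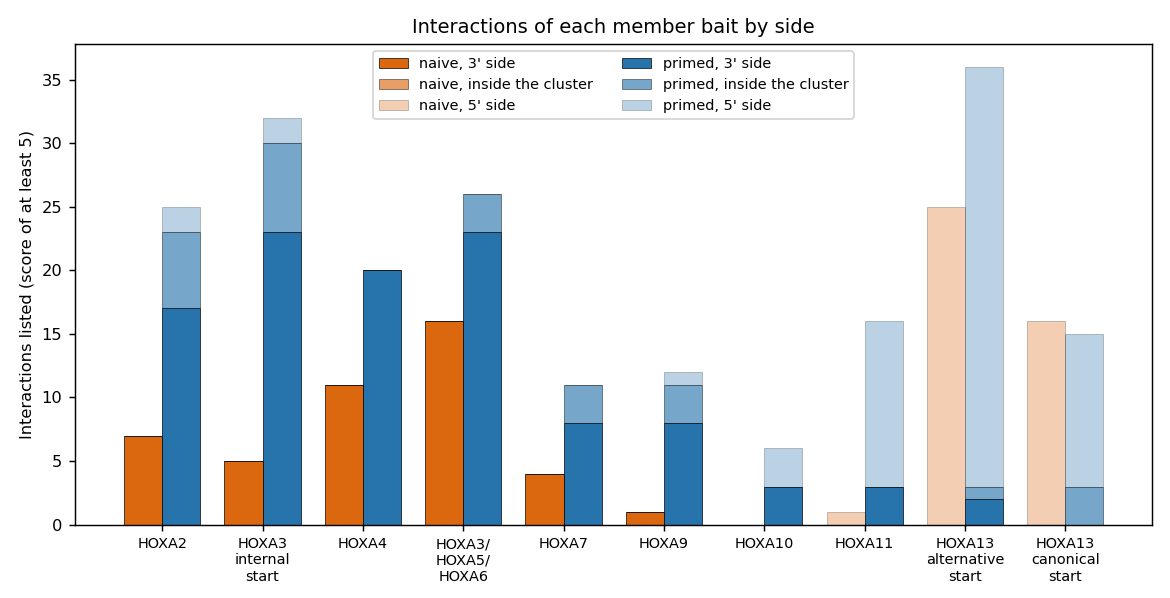
Number of listed interactions (CHiCAGO score of at least 5) of each baited fragment along the cluster, from HOXA2 at the 3′ end to HOXA13 at the 5′ end, in naive (orange) and primed (blue) PSCs. Shading separates partners on the 3′ side, inside the region and on the 5′ side. In naive PSCs the fragments from HOXA2 to HOXA9 had partners on the 3′ side and those of HOXA11 and HOXA13 on the 5′ side, and inside partners appeared in primed PSCs, 18 in all.

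**Figure D2:**
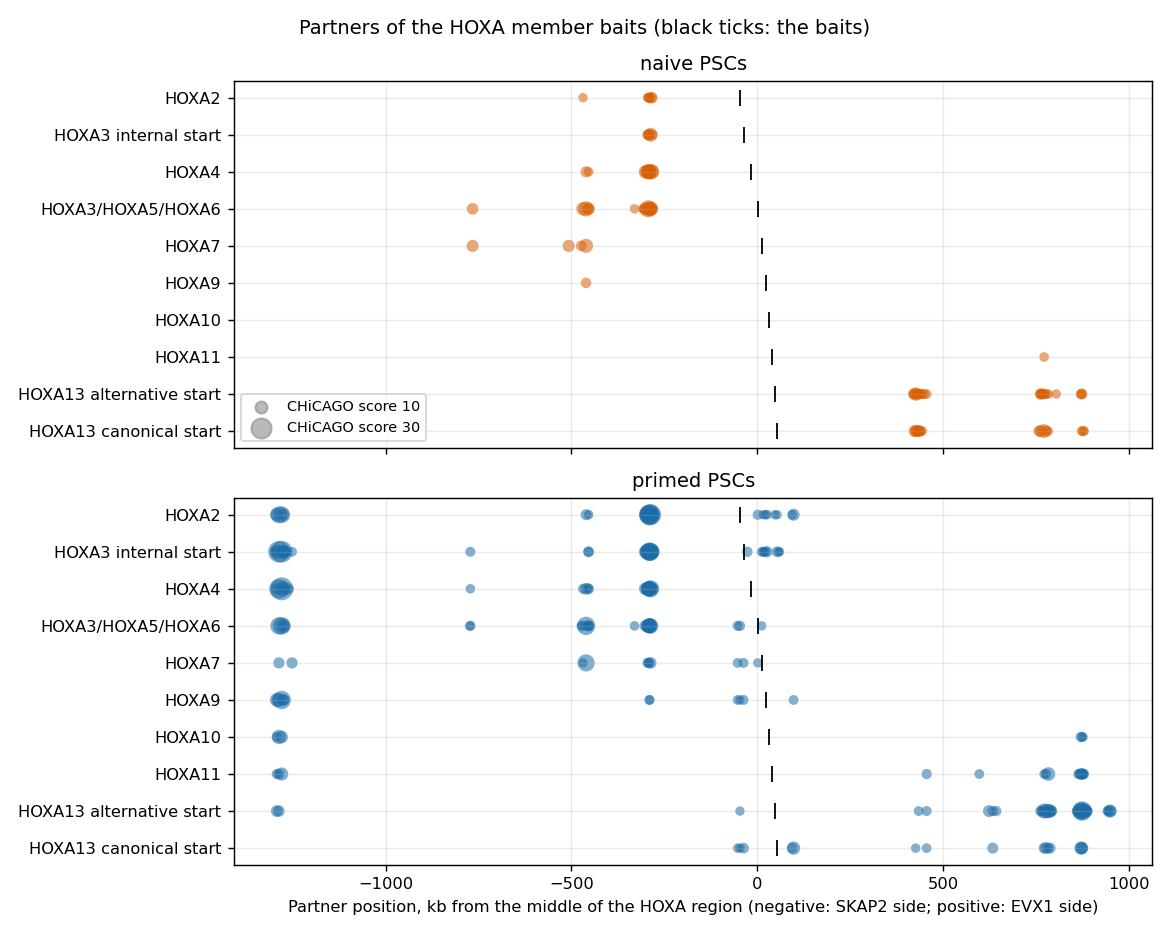
Position of each listed partner, in kb from the middle of the HOXA region, for each baited fragment in naive (upper) and primed (lower) PSCs. Point area grows with the CHiCAGO score, black ticks mark the baited fragments, and the UNCX partners about 25.9 Mb away are outside the plotted range. The group of points farthest to the left, the gene-free block, is present in primed PSCs, with 37 interactions, and absent from the naive list.

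HOXA2 patterns the hindbrain and the second pharyngeal arch. Its baited fragment (chr7:27097581-27103649) had 7 interactions in naive and 25 in primed PSCs. Of these, 6 naive and 10 primed interactions joined the promoter end of SKAP2 (chr7:26813427-26865908), which encodes an adaptor protein of Src family kinase signalling. In this stretch 6 partner fragments were in both lists, and all 6 had more reads in primed PSCs. Their reads ran from 13 to 20 in naive and from 26 to 57 in primed PSCs, and the sums were 93 and 242, a ratio of 2.60. Over the 53 pairs of the cluster that stood in both lists, the median of the primed over naive reads was 1.174, beside 1.158 over all 39360 such pairs of the genome. The short SKAP2 intron fragment printed above had 57 reads and a score of 32.88 with HOXA2 in primed PSCs and was not listed with it in naive PSCs.

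HOXA3, needed for the thymus and parathyroid glands, has its main start in the fragment it shares with HOXA5 and HOXA6 and an internal start in a baited fragment next to that of HOXA2 (chr7:27103650-27116792). The internal fragment had 5 interactions in naive and 32 in primed PSCs. All 5 naive partners were at the promoter end of SKAP2, where the summed reads were 163 in naive and 288 in primed PSCs over the same 5 pairs, a ratio of 1.77. Its contact with the printed SKAP2 fragment was listed in primed PSCs with 72 reads and a score of 25.42. The neighbouring fragments of HOXA2 and of the HOXA3 internal start thus both had more reads in primed PSCs over the same stretch of SKAP2.

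The next fragments along the cluster had contacts with SKAP2 at about equal read numbers in both cell types. HOXA4, a gene of the cervical vertebrae, had 11 interactions in naive and 20 in primed PSCs (chr7:27129810-27131404). Its 9 SKAP2 promoter-end partners were the same fragments in both lists, with 258 reads in naive and 282 in primed PSCs, a ratio of 1.09. The fragment with the starts of HOXA3, HOXA5 and HOXA6 had 16 and 26 interactions. HOXA5 acts in lung development and HOXA6 in the vertebrae of the neck and chest. Over the 9 SKAP2 promoter-end fragments that this fragment contacted in both cell types, it had 210 naive and 209 primed reads, and its contact with chr7:26852705-26855232 had the highest score of any naive interaction of the cluster, 20.86 with 38 reads, against 14.55 with 28 reads in primed PSCs. A further contact of this fragment with the 3′ part of SKAP2 (chr7:26680643-26692165) had 28 naive and 42 primed reads, with scores of 16.31 and 24.31. A stretch at SNX10, a sorting nexin gene further out, had 2 naive interactions, with this fragment (14 reads) and with HOXA7 (9 reads). Their partner fragment lay 937 bp outside the gene. The stretch had 4 primed interactions of 7 to 11 reads with other fragments. Of these fragments chr7:26372749-26374604 overlapped SNX10 and chr7:26374605-26375319 lay 222 bp from it.

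**Figure D3:**
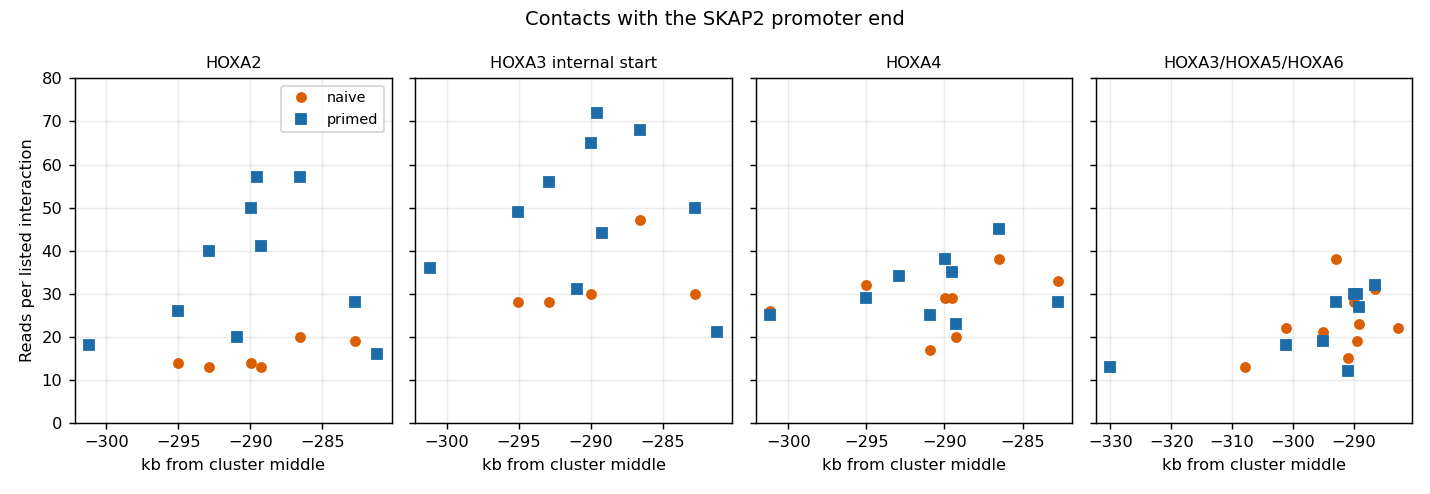
Reads of each listed interaction with the promoter end of SKAP2, plotted against partner position in kb from the middle of the HOXA region, for the baited fragments of HOXA2, the HOXA3 internal start, HOXA4 and HOXA3/HOXA5/HOXA6. Orange circles are naive and blue squares primed PSCs, each from 1 combined list. At each partner in both lists, the primed value lies above the naive value for HOXA2 and the HOXA3 internal start, and the values intermix for the other baited fragments.

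Towards the middle of the cluster the naive list was nearly empty. HOXA7, a gene of the thoracic vertebrae, had 4 interactions in naive and 11 in primed PSCs. HOXA9, which acts in blood progenitors and in leukaemia, had 1 and 12. HOXA10, needed in the uterus and in the posterior skeleton, had 0 and 6. In these 3 genes the baited fragment holds an alternative start, and the main start lies in a fragment without a bait. The unbaited fragments appear in the lists as partners of other baits. The fragment with the main HOXA9 start (chr7:27163387-27168347) was listed in naive PSCs with a bait beside SNX10 (13 reads, score 10.89) and with the SKAP2 3′ part (24 reads, score 12.32), and in primed PSCs with the HOXA3 internal start (84 reads, score 5.78) and neither of these. The fragment with the main HOXA10 start (chr7:27170602-27176395) had the same pair of naive partners, at 9 and 16 reads. In primed PSCs its partners were HOXA2 (37 reads), the HOXA3 internal start (97 reads), EVX1 (fragments with 51 and 65 reads), and, at 3 reads each, UNCX and DLX6, a homeobox gene of the jaw 69.8 Mb away.

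At the 5′ end of the cluster, most partners lay towards EVX1 in both cell types, with more HIBADH interactions in naive and more JAZF1 interactions in primed PSCs. HOXA11, a gene of the forearm and the uterus, had 1 interaction in naive and 16 in primed PSCs. HOXA13, which shapes the digits and the hindgut, has an alternative start in chr7:27190655-27198793, with 25 naive and 36 primed interactions. The fragment of its main start (chr7:27198794-27202692), which also overlaps the long non-coding RNA gene HOTTIP, had 16 and 15 interactions. It was the only one of the 10 with fewer in primed PSCs. Introns of HIBADH, which encodes an enzyme of valine breakdown, made up 19 of the naive interactions of these genes with 371 reads, and 5 of the primed with 73 reads. The highest of them was HOXA13 alternative start to chr7:27572972-27574533 in naive PSCs, with 35 reads and a score of 12.38, which was not in the primed list.

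Partners in JAZF1, which encodes a zinc finger protein, went the other way, with 23 interactions and 262 reads in naive and 49 interactions and 658 reads in primed PSCs. Over the 9 JAZF1 pairs of the HOXA13 alternative start that were in both lists, reads were 117 in naive and 198 in primed PSCs, a ratio of 1.69. Over 4 such pairs of the HOXA13 main start they were 37 and 33. The highest score was from the alternative start to chr7:28020315-28023584, with 12 reads and a score of 6.13 in naive and 35 reads and a score of 27.6 in primed PSCs. This fragment is next to the JAZF1 intron fragment printed above. TAX1BP1, which encodes an autophagy receptor, had 0 naive and 5 primed interactions with these genes, of 9 to 20 reads.

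Interactions between fragments of the cluster itself were listed in primed PSCs alone, at scores of 5.12 to 8.22. The HOXA3 internal start had 7 of these partners, among them the unbaited fragment inside HOXA3 with 437 reads at 10.3 kb, the highest read number of any interaction of the cluster. Contacts also spanned nearly the whole cluster, since HOXA2 reached the main start of HOXA13 (34 reads, score 5.24) and its alternative start (47 reads, score 5.26). The HOXA3 internal start and the main HOXA13 start were joined by 53 reads with a score of 7.41. The baited fragments of HOXA4, HOXA10 and HOXA11 had no listed partner inside the region in either cell type.

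EVX1, a homeobox gene of the spinal cord that borders the cluster beyond HOXA13, was a partner in primed PSCs of HOXA2 (46 reads, score 9.63), HOXA9 (62 reads, 5.98) and the main start of HOXA13 (126 reads, 12.12). Fragments of HOTTIP next to HOXA13 were partners of the HOXA3 internal start, with 49 and 45 reads. None of these fragments was a partner in naive PSCs. Of a list of 23 developmental regulator genes on chromosome 7, of which 22 had a baited fragment with a start, EVX1 was the only partner of the 10 fragments, in primed PSCs, and there was none in naive PSCs. The neighbouring genes CBX3 and NFE2L3 were not in a partner fragment.

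The partner stretch with the most interactions over 1 Mb was a block of 9 fragments without a protein-coding gene (chr7:25848221-25896580), 1215.4 to 1341.0 kb from the baited fragments. It had 37 primed interactions with 442 reads, from 9 of the 10 baited fragments, and no naive interaction. The exception was the main HOXA13 start, the fragment farthest from it. NFE2L3, which encodes a stress-response transcription factor, was the nearest protein-coding gene, 255618 bp away. HOXA4 had the highest score of any interaction of the cluster with this block, 38.72 at 27 reads with chr7:25864446-25869574, and the HOXA3 internal start had the most reads, 128 over 8 fragments. HOXA4 had 83 reads with the block, HOXA9 had 53, HOXA3/HOXA5/HOXA6 had 49 and HOXA2 had 45. Fewer were seen for HOXA10 and HOXA11, with 26 each, for the HOXA13 alternative start, with 22, and for HOXA7, with 10, so the 3′ members held most of the reads. A neighbouring fragment (chr7:25854578-25864445), which overlaps a non-coding transcript, was contacted by all 9 baited fragments, with 5 to 34 reads each.

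The other 5 interactions over 1 Mb joined UNCX, a homeobox gene of the vertebral column about 25.9 Mb away (chr7:1228172-1258473). They were listed in primed PSCs for HOXA2, the HOXA3 internal start, HOXA3/HOXA5/HOXA6 and HOXA9, with 18 reads in all. The highest score was that of the HOXA3 internal start, 16.32 on 5 reads, and each of the others rested on 3 or 4 reads.

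Hi-C, which uses no promoter capture, was read in bins of 100 kb as the count of a pair of bins over the mean count of all chromosome 7 pairs at that distance in the same library. The listed counts summed to 31310843 in naive and 52056334 in primed PSCs, sums that do not include pairs left out of the files. Intervals are exact 95% Poisson intervals that cover counting error only. The bin chr7:27100001-27200000, which holds most of the cluster, and the bin of the gene-free block had 104 primed read pairs (85.0 to 126.0), 5.73 times the mean at that distance. With the bin of UNCX it had 12 primed read pairs (6.20 to 21.0), 29.4 times the mean. The naive file leaves out many pairs at such distances, so no naive value is set beside these. At shorter distances both files list most pairs, though the naive share falls with distance. For the promoter end of SKAP2, this bin had 319 naive read pairs, 2.98 times the mean (2.665 to 3.329), and 226 primed read pairs, 1.72 times the mean (1.499 to 1.954). The next bin towards SKAP2 (chr7:27000001-27100000), which holds part of the HOXA2 fragment, went the other way, at 1.53 times the mean in naive (1.346 to 1.738) and 2.41 times in primed PSCs (2.198 to 2.645). With the 3′ part of SKAP2, the bin chr7:27100001-27200000 was at 2.00 times the mean in naive (1.653 to 2.407) and 1.23 times in primed PSCs (0.994 to 1.505). For chr7:27000001-27100000 these values were 0.853 and 1.013 times. With the bin to its 5′ side, which holds HOTTIP and EVX1, the bin chr7:27100001-27200000 was at 0.378 times the mean in naive (0.315 to 0.449) and 0.786 times in primed PSCs (0.702 to 0.877). With the first HIBADH bin, the bin that holds the HOXA13 alternative start and part of its main-start fragment was at 1.13 times the mean in naive (0.903 to 1.394) and 0.563 times in primed PSCs (0.424 to 0.732). The 5′ bin, which holds the rest of the main-start fragment, was at 3.59 times the mean in naive (3.24 to 3.97) and 3.45 times in primed PSCs (3.14 to 3.79). With the TAX1BP1 bin, chr7:27100001-27200000 was at 1.37 times in naive and 0.695 times in primed PSCs, and the 5′ bin at 2.00 and 2.68 times. With the first JAZF1 bin these values were 4.04 and 1.70 times, and 5.22 and 5.09 times. At the JAZF1 distances the naive file lists 50.3% and 64.5% of pairs. The Hi-C ratios thus did not follow the interaction lists at every stretch. The ratios within chromosome 7 were not corrected for the totals of the bins. The total of the bin chr7:27100001-27200000 was 1.18 times the median bin in naive and 0.63 times in primed PSCs. For chr7:27000001-27100000 it was 0.786 and 0.979 times, and for the 5′ bin 1.126 and 1.103 times. Whether the ratios differ between cell types beyond the bin totals was not tested. Contacts of the 3 bins of the region with the HOXB bins numbered 6 in primed PSCs (2.2 to 13.1, against 0.11 expected from the bin totals), with HOXC 3 (0.62 to 8.77) and with HOXD 0. Naive PSCs had 0 with each, which allows up to 3.69.

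H3K4me1 was compared over 500 bp tiles and over HindIII fragments in 2 naive and 3 primed libraries, of 6744000 to 26597000 reads, to the nearest 1000, as recovered from the steps of the deposited values. Two-sided p-values from limma, adjusted by the Benjamini-Hochberg method over all tested tiles or fragments of the genome, were called below 0.05. The study's methods call the libraries biological replicates. Whether they came from separate cultures is not given in the sources used here, and the p-values measure the spread between these libraries. As a check of the labels, H3K4me1 around the starts of naive marker genes was higher in both naive libraries than in all primed libraries for 5 of 7 genes, among them KLF17 and DPPA5. Among the primed marker genes this separation was seen in the primed direction for 1 of 7, THY1, and in the naive direction for ZIC2, DUSP6 and CD24, so 4 of the 7 primed markers separated the libraries, 3 of them in the naive direction.

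Where H3K4me1 differed along the HOXA region it was higher in naive PSCs, mainly between HOXA2 and HOXA5. The region spans 224 tiles. With every tile tested and no filter on low values, limma called 28 of 224 higher in naive PSCs, against 4.18% of all tiles of the genome, and 0 higher in primed PSCs, against 3.77%, where 4 had an unadjusted p under 0.05. These shares come from unlike sets of tiles. Of the 6176550 tiles of the genome 465122 pass the filter on low values used below, against 105 of the 224 in the region. The region's share is therefore not read as an excess over the genome. Of the 28 tiles, 22 lay among the 89 tiles from the HOXA2 bait up to the HOXA5 bait, 2 among the 80 from there to the HOXA11 bait and 4 among the 42 from the HOXA11 bait to the end.

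With the filter (log2 RPM over 0 in 2 or more libraries), 105 tiles were tested. Of these, limma called 26 higher in naive PSCs, close to the genome-wide 26.1%, and 0 higher in primed PSCs, against 26.0%. At an unadjusted p under 0.05 the counts were 30 and 1, and edgeR on the recovered reads called 35 and 1. The filtered count cannot be read on its own, since 19 of the 21 tiles that passed through the naive libraries alone were called, against 7 of the 79 that passed through both cell types (8.86%). From the HOXA2 bait up to the HOXA5 bait, 15 of the 17 filtered calls were of the former kind. Without naive replicate 1 the 26 calls became 5, without naive replicate 2 they became 8, and without primed replicate 3 they became 15.

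The tile with the largest difference lay inside HOXA3, at chr7:27116501-27117000, with 30 and 10 reads in the naive libraries and 0, 0 and 3 in the primed libraries. On the log2 RPM scale the difference was -3.71 (limma adjusted p = 6.88e-05 with every tile tested). A tile just beyond the 3′ end of HOXA3 in the same baited fragment, chr7:27105001-27105500, had 38 and 7 naive reads and 2, 1 and 4 primed reads, a log2 difference of -3.05 (limma adjusted p = 0.00154 with every tile tested). These tiles, and chr7:27120501-27121000, chr7:27121501-27122000 and chr7:27104501-27105000, were chosen as the 5 with the largest called difference and libraries that do not overlap, and all 5 passed the filter through the naive libraries alone. Without the filter all 5 were called.

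**Figure D4:**
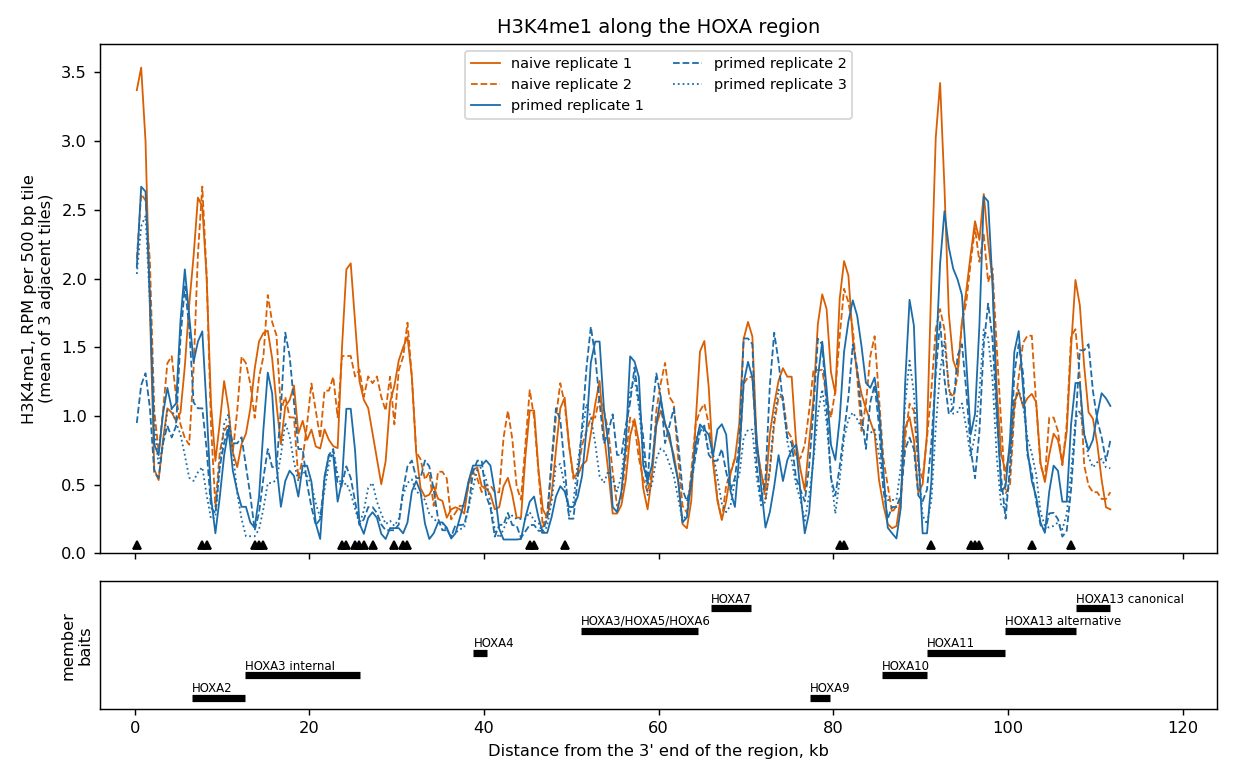
H3K4me1 along the HOXA region in RPM per 500 bp tile, drawn as the mean of 3 adjacent tiles against distance from the 3′ end of the region, for each of the 2 naive (orange) and 3 primed (blue) libraries. Triangles mark tiles called by limma, all 26 higher in naive PSCs, and black bars below are the baited fragments. The naive libraries lie above the primed libraries over most of the stretch from the HOXA3 internal start to HOXA4.

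By HindIII fragment, 19 of the 28 fragments of the region passed the filter. Limma called 6 higher in naive PSCs, 31.6% of those tested, against 25.5% of all fragments, and 0 higher in primed PSCs, against 26.4%, where the unadjusted p was under 0.05 for 7 and 0. Of the 6, 3 passed the filter through the naive libraries alone, so their calls follow from the filter and are given as values. Among them was the unbaited fragment inside HOXA3 (chr7:27118599-27122401), the one joined to the HOXA3 internal start by 437 reads in primed PSCs. Its mean log2 RPM was -0.09 and 0.19 in the naive libraries and -2.76, -2.11 and -1.88 in the primed libraries. The other 3 passed through both cell types and are the baited fragments of the HOXA3 internal start, HOXA2 and the HOXA13 alternative start. In the baited fragment of the HOXA3 internal start the values were 0.10 and 0.12 in naive and -1.36, -1.16 and -1.39 in primed PSCs, a difference of -1.41 (SE 0.355, limma adjusted p = 0.00422).

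The fragment of HOXA2 stood at 0.14 and -0.14 in naive and -0.98, -0.67 and -1.24 in primed PSCs, a difference of -0.97 (SE 0.376, limma adjusted p = 0.043). For the HOXA13 alternative start the values were -0.21 and -0.33 against -1.06, -1.51 and -1.39, a difference of -1.05 (SE 0.353, limma adjusted p = 0.0222). Both calls were lost when either naive library or primed replicate 3 was left out, and with a block for the replicate number. Replicate 3 occurs in primed PSCs alone, so the block gives the same differences as leaving it out and is not a separate check. The HOXA2 call was also lost with quantile normalisation. That of the HOXA13 alternative start was also lost with the log2 of the mean RPM in place of the mean log2 RPM. In all these settings the direction stayed. Of the 10 baited fragments 9 were tested and these 3 were called. The fragments of HOXA2 and of the HOXA3 internal start, in which reads with SKAP2 were higher in primed PSCs, were thus among those with lower H3K4me1 in primed PSCs.

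The remaining baited fragments showed no call as a whole, although single tiles inside HOXA9, HOXA10 and HOXA11 and 4 tiles of the HOXA11 baited fragment were called higher in naive PSCs. The fragment of HOXA3, HOXA5 and HOXA6 differed by 0.17 (SE 0.368, limma adjusted p = 0.716), that of HOXA9 by -0.30 (SE 0.388, limma adjusted p = 0.538) and that of HOXA11 by -0.74 (SE 0.394, limma adjusted p = 0.131). HOXA4 had 3 tiles and did not pass the filter, with -1.06 and -1.42 in naive and -0.68, -0.65 and -0.67 in primed PSCs, so all primed libraries lay above the naive ones. The main start of HOXA13 was at -0.25 and -1.05 against -0.05, 0.15 and -0.41, a difference of 0.55 (SE 0.405, limma adjusted p = 0.272). In the single tile over each main start, 7 of the 10 genes passed the filter and none was called. The largest of these differences was at HOXA9, -1.61 (SE 0.824, limma adjusted p = 0.113), where primed replicate 1 had 1 read and primed replicate 2 had 10.

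The partner fragments carried calls in both directions. Of 91 partner fragments 51 were tested, and limma called 10 higher in primed PSCs (19.6%, against 26.4% of all fragments) and 5 higher in naive PSCs (9.80%, against 25.5%), both shares below the background. Of the 10 primed calls, 9 were fragments that passed the filter through the primed libraries alone, and of the 5 naive calls 2 passed through the naive libraries alone. Among the 37 partners that passed through both cell types, 1 was called higher in primed and 3 in naive PSCs. In the gene-free block, where interactions were listed in primed PSCs, the fragment with the top score (chr7:25864446-25869574) had values of -1.06 and -0.84 in naive and -1.20, -2.31 and -1.69 in primed PSCs and was not called, with a difference of -0.78 (SE 0.364, limma adjusted p = 0.085). Beside it, chr7:25854578-25864445 was higher in naive PSCs, with a difference of -1.20 (SE 0.430, limma adjusted p = 0.0309). This call was lost without naive replicate 1, naive replicate 2 or primed replicate 3, and with a block for the replicate number. The fragment chr7:25872597-25874256, which passed through the primed libraries alone, stood at -2.14 and -1.79 in naive and -0.49, -0.10 and -0.22 in primed PSCs. The block thus held values that were higher in either cell type.

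In HIBADH, 3 of 6 tested fragments were called higher in primed PSCs, and all 3 passed through the primed libraries alone. Of all fragments 26.4% were called in this direction, and 6 fragments are too few to set a share against it. The largest difference was at chr7:27601491-27604951, with -2.05 and -1.44 in naive and 1.29, -0.33 and 0.59 in primed PSCs. In TAX1BP1, 2 of 3 tested fragments were called higher in naive PSCs, where 25.5% of all fragments were. The fragment chr7:27768435-27773415, which holds a TAX1BP1 promoter, had -0.56 and -0.37 in naive and -3.24, -2.59 and -2.99 in primed PSCs and passed through the naive libraries alone. Its neighbour chr7:27777337-27785183 passed through both, with -1.35 and -0.87 against -2.26, -2.55 and -2.44, a difference of -1.31 (SE 0.311, limma adjusted p = 0.00296).

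In JAZF1, 5 of 20 tested fragments were called higher in primed PSCs, a share close to the 26.4% of all fragments, and 4 of the 5 passed through the primed libraries alone. The exception was the short fragment whose sequence is given above, chr7:28020100-28020314, with values of 0.20 and -0.43 in naive and 1.25, 1.34 and 0.73 in primed PSCs. Its difference was 1.22 (SE 0.406, limma adjusted p = 0.0209), and the call was lost without naive replicate 2. At the promoter end of SKAP2 3 of 12 fragments were tested and none was called. The EVX1 fragment chr7:27242453-27247685 lay at 0.42 and 0.43 in naive and 0.95, 1.05 and 0.71 in primed PSCs, so the groups did not overlap, but the difference of 0.48 was not called (SE 0.378, limma adjusted p = 0.304).

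**Figure D5:**
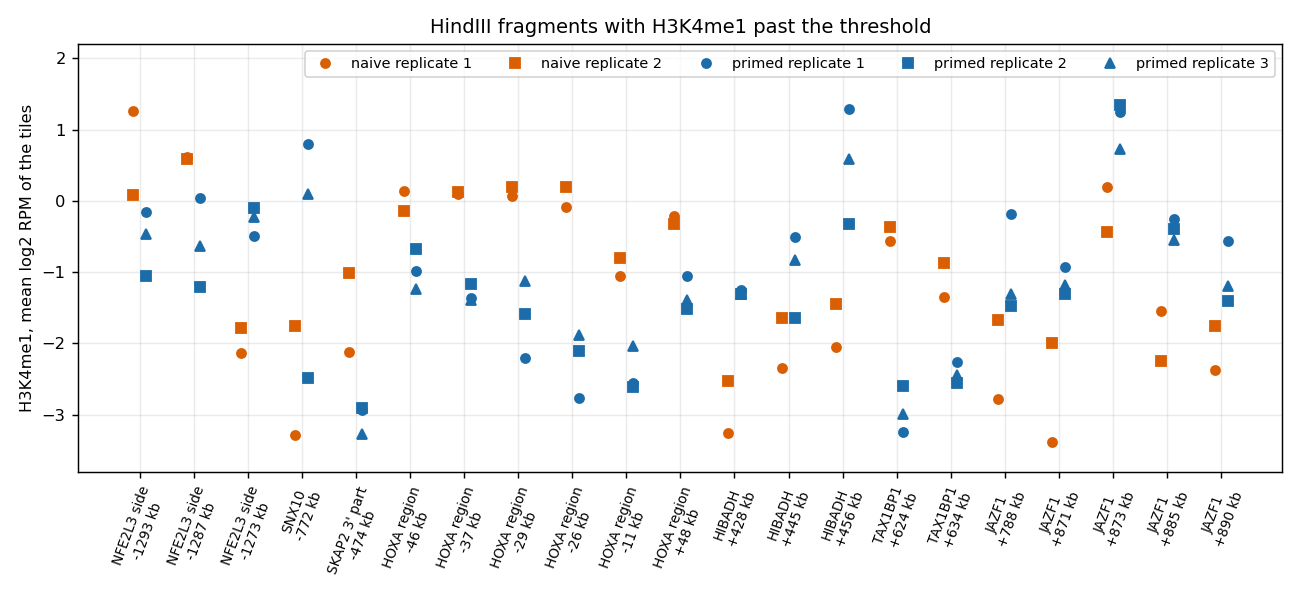
Mean log2 RPM of H3K4me1 in each library for the HindIII fragments past the threshold, 15 at partners and 6 in the HOXA region, ordered along chromosome 7 with their distance in kb from the middle of the region. Orange symbols are naive and blue symbols primed libraries, and the symbol shape gives the replicate. All 6 fragments of the region lie higher in naive PSCs, and the HIBADH and JAZF1 fragments lie higher in primed PSCs. In the fragment labelled SNX10, which lies beside that gene, the libraries overlap. Of the 21, 14 passed the filter through the cell type in which they are higher alone.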

How the data were processed

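The labels gave the cell type and replicate of each PCHi-C, Hi-C and H3K4me1 library. The naive ChIP-seq libraries (NANOG, SOX2, input) were not used here. PCHi-C lists came from read pairs that the authors mapped read pairs to GRCh38 with HiCUP. The authors combined 2 replicates per cell type in CHiCAGO and deposited pairs that reach a score of 5, beside a scaled, rounded read number. The deposited Hi-C values are counts of filtered read pairs between 100 kb bins. The deposited H3K4me1 values are log2 RPM per 500 bp tile, made by the authors with Trim Galore 0.5.0, Bowtie2 2.3.2 and SeqMonk, and a tile without reads has the value of 0.9 reads.

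The lists do not name baits, so a bait was given to a gene where a GENCODE 44 transcript starts in the fragment. All 88413 listed fragments had HindIII ends of GRCh38, and pairs listed from both ends were merged. Partners were joined into stretches where gaps were under 60 kb. The naive Hi-C file leaves out pairs within chromosomes, so ratios are given for it where most pairs are listed. Log2 RPM of tiles, or their mean per HindIII fragment, entered limma 3.58.1 (lmFit, eBayes with trend, R 4.3.3) where it was over 0 in 2 or more libraries (a fragment needed 1 such tile in each of 2), and edgeR 4.0.16 on recovered reads was an alternative. The fit was tested on simulated data with normal noise and log2 differences larger than any given here. That test does not show how well smaller differences are found. Named genes are the members, the neighbours of the cluster, genes of partners over 1 Mb, a list of chromosome 7 regulators and the 5 tiles with the largest called difference. DLX6 is named as a partner of an unbaited fragment, after its value was seen. The members and lists were chosen with earlier results of these data known. Analyses used Python 3.11.15, pandas 2.3.3, numpy 2.4.6 and scipy 1.17.1.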

Additional observations from a re-analysis of the deposited data

How the results depend on the processing

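A stricter CHiCAGO score lowered the number of interactions of the 10 baited fragments in both cell types, from 86 naive and 191 primed to 48 and 111 at a score of at least 7 and to 19 and 68 at a score of at least 10, and primed PSCs kept the higher number. Primed interactions over 1 Mb went from 42 to 21 at a score of at least 10, to 20 with at least 10 reads and to 5 with a limit of 2 Mb, which leaves those with UNCX. Naive interactions also found in primed PSCs went from 53 to 85 of 86 when ends within 10 kb were taken as the same. This setting also matches pairs of neighbouring baited fragments.

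For H3K4me1, tiles of the region called higher in primed PSCs went from 0 to 1 with quantile normalisation, with the replicate block and with edgeR, and ranged from 0 to 1 when single libraries were left out. Tiles higher in naive PSCs went from 26 to 16 with the replicate block and ranged from 5 to 29 when single libraries were left out. At partners, fragments higher in primed PSCs went from 10 to 6 with the replicate block and ranged from 5 to 15 when single libraries were left out (5 without naive replicate 1), and fragments higher in naive PSCs went from 5 to 3 with the block and ranged from 3 to 6 when single libraries were left out (3 without naive replicate 1, naive replicate 2 or primed replicate 3). With the block the differences equal those without primed replicate 3, since no naive library has that number. The cause of the other changes was not tested. The replicate numbers were not taken as pairs, since same-numbered libraries hardly deviated together (correlations of 0.035 and 0.031 over tiles, 0.083 and 0.101 over fragments). Of 26 single tiles and fragments followed through the settings none changed direction, and 8 lost their call with the block.

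Depth limits these comparisons, since naive replicate 2, primed replicate 1 and primed replicate 2 have few reads in a tile. The interaction lists and the Hi-C libraries have no replicate values.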
